A study of Mus musculus with 36 samples.

Results

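The genes described are the 2 liver X receptors (LXR), Nr1h3 and Nr1h2, their retinoid X receptor (RXR) partners Rxra and Rxrb, and 5 cofactors that nuclear receptors recruit, Ncor1, Tbl1xr1, Hdac3, Ncoa1 and Ncoa2. They were taken by gene symbol from the table of expression, which lists 49315 genes, and all 9 were among the 16638 genes expressed highly enough to be tested. Liver polyadenylated RNA of males 11 to 12 weeks old was sequenced as 36 libraries, in 9 groups of 4. Each library is called a mouse here, although the labels do not state that each came from a separate animal, so the tests measure the spread between libraries. The mice came from a line edited with CRISPR at residue 441 of LXRalpha. W/W mice were homozygous for the normal tryptophan, F/F mice were homozygous for phenylalanine, and W/F mice carried 1 allele of each. In each genotype, 1 group was kept on normal chow. Another was fed Teklad TD.96121, a fat- and cholesterol-enriched feed used to bring on steatohepatitis linked to metabolic dysfunction (MASH), for 4 weeks and given vehicle by daily gavage during the last 2 weeks. The remaining group had the same diet and, in place of vehicle, 10 mg/kg T0901317, a synthetic agonist of both LXRs. The chow mice were an independent cohort that, per the labels, had no MASH diet, and they are listed with 0 weeks of gavage. Differences of diet, gavage and cohort therefore cannot be told apart. The diet comparisons and diet responses below set vehicle mice against chow mice and hold all of these differences. The labels restrict the mutation to no cell type.

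LXRs are nuclear receptors for oxysterols, the oxidised derivatives of cholesterol. Each LXR binds DNA as a heterodimer with an RXR, at paired half-sites that resemble AGGTCA. Without a ligand the heterodimer recruits corepressor complexes built on NCoR1 or SMRT, which hold TBL1XR1 and the histone deacetylase HDAC3. Binding of an agonist repositions the last helix of the receptor (helix 12) and favours coactivators such as the p160 proteins encoded by Ncoa1 and Ncoa2. In the liver, the heterodimer drives genes of cholesterol efflux and fatty acid synthesis, and LXRalpha is the more abundant LXR in hepatocytes.

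The edited codon lies at the 3′ end of the coding sequence, and the same stretch of both LXR genes is shown because the mutation was placed in one of a pair of near-identical sites. The study's description pairs LXRalpha with the symbol Nr1h2, whereas the usual symbol of LXRalpha is Nr1h3 and Nr1h2 encodes LXRbeta. The reference coding sequences (GRCm38, GENCODE M21) are given 5′ to 3′ in the sense of transcription, from 7 codons before the tryptophan to the stop codon, with the tryptophan codon in capitals.
Nr1h3 (chr2:91184336-91184374, minus strand): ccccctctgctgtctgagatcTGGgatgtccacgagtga
Nr1h2 (chr7:44549985-44550023, minus strand): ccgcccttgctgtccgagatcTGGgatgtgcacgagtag
On GRCm38, Nr1h3 spans chr2:91184061-91202834 (minus strand), Nr1h2 chr7:44549616-44553951 (minus strand), Rxra chr2:27676440-27762957 (plus strand) and Rxrb chr17:34031812-34038399 (plus strand). The windows share 32 of 39 bases and encode the same 12 residues. The tryptophan is residue 441 of the 445 residues of the Nr1h3 product and residue 442 of the 446 residues of the Nr1h2 product, and codon 441 of Nr1h2 encodes another amino acid. The residue number in the labels is thus that of Nr1h3. The codon that replaced TGG in the mutant line is not given in the sources used here, and the reads were not analysed here, so expression values do not report which allele was transcribed. The whole proteins were identical at 68.3% of 426 aligned residues, and at 80.0% of the last 200, which hold most of the ligand-binding domain. Rxra and Rxrb products were identical at 72.7% of 461 aligned residues. No stretch of 50 bases of Nr1h3, Nr1h2, Rxra, Rxrb, Ncoa1 or Hdac3 transcripts occurred in an annotated gene outside the set described here. For Ncor1, Ncoa2 and Tbl1xr1, at most 1.14% of such stretches did. Stretches shared within the set, such as between Nr1h3 and Nr1h2 or between Rxra and Rxrb, were not searched for.

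Expression was deposited as TPM, a measure of transcript abundance scaled to gene length and to a fixed total in each library. Library depth, worked out from the step between low values, was 18.02 to 35.7 M reads (median 23.8 M), which gave between 263 reads for Ncoa1 in its lowest library and 16693 reads for Rxra in its highest. At 263 reads, counting alone gives an error of 6.16%, in so far as reads are independent molecules. The composition of the libraries differed with genotype and diet. The 100 most abundant genes took 53.7% to 58.4% of all TPM in the W/W vehicle group and 39.2% to 42.1% in F/F vehicle mice, so the remaining genes had more of a fixed total. Most results are therefore given on the deposited scale and after median-of-ratios scaling. This scaling divides a library by the median of its genes' ratios to their geometric mean over all libraries. These factors ran from 0.693 to 0.852 in W/W vehicle mice and from 1.43 to 1.48 in F/F vehicle mice. W/W vehicle replicate 1 had the lowest factor of all 36 libraries. The 8 hepatocyte markers, Alb and Apob among them, summed to 36107 to 40555 TPM in F/F vehicle mice and 74342 to 96703 TPM in W/W vehicle mice. The 9 macrophage and Kupffer cell markers summed to 187 to 329.9 TPM in W/W vehicle mice, 2967 to 4015 in W/F vehicle mice and 3615 to 4708 in F/F vehicle mice, and no marker of any list was at 0 in all 4 libraries of a group. In bulk tissue, fewer cells of a type and less RNA per cell cannot be told apart.

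On the TPM scale, Rxra was the most abundant of the 9 genes in every group, with group means from 173 ± 11.1 to 242 ± 16.2 TPM (SD, n = 4 for each group mean in the text). Nr1h3 followed with 86.8 ± 3.27 to 108 ± 9.04 TPM. Nr1h2, Rxrb, Ncor1 and Hdac3 lay between 13.7 ± 1.02 TPM (Ncor1 in W/W mice with T0901317) and 47.2 ± 2.57 TPM (Nr1h2 in F/F vehicle mice). Tbl1xr1, Ncoa1 and Ncoa2 were the least abundant, between 3.63 ± 0.432 TPM for Ncoa2 in W/F mice with T0901317 and 17.98 ± 2.10 TPM for Tbl1xr1 in F/F vehicle mice. From its lowest to its highest group mean, Nr1h3 spanned 0.31 on the log2 scale as deposited, and 1.47% of tested genes had a smaller one. After median-of-ratios scaling the span of Nr1h3 was 0.79, close to the median gene at 0.85. Nr1h2 went the other way, from 1.00 on the deposited scale to 0.24, a span smaller than that of all but 1.497% of tested genes.

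**Figure D1:**
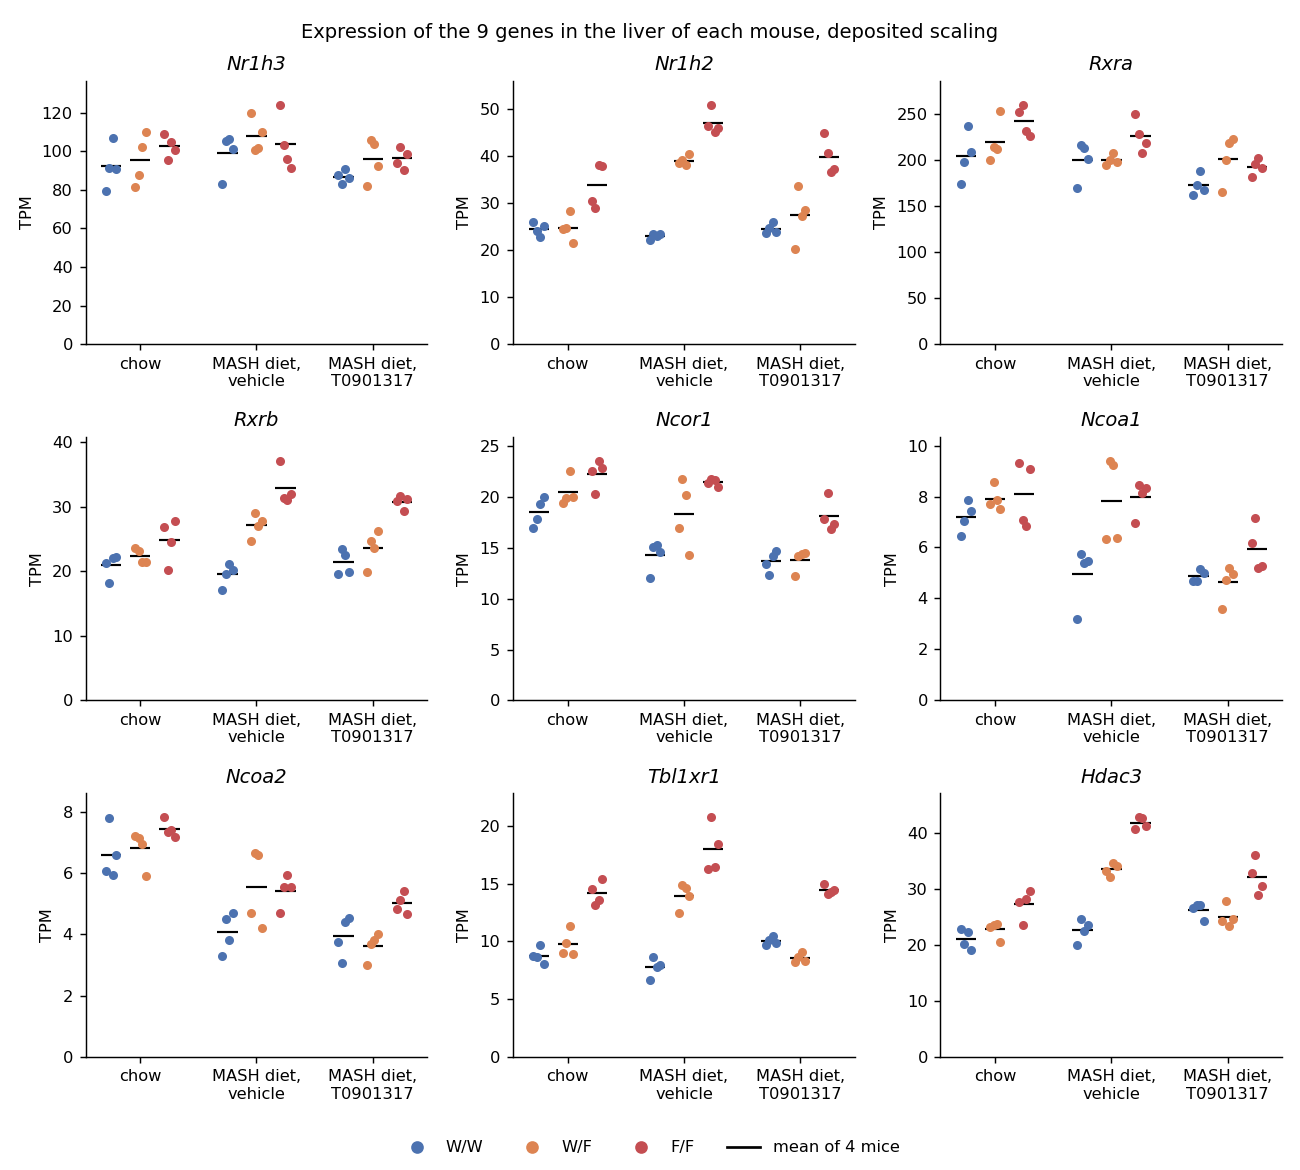
TPM of each gene (y axis, from 0, a different range in each panel) in each of the 36 mice, on the deposited scale, by treatment on the x axis and genotype in colour; black lines are group means. Nr1h2, Tbl1xr1 and Hdac3 are highest in the 4 F/F vehicle mice, which overlap no other group for these 3 genes, while Nr1h3 overlaps between neighbouring groups throughout; the order of groups for these 3 genes is not kept after median-of-ratios scaling.

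Nr1h3, the gene that carries the mutation by its residue number, passed the test in none of the 16 comparisons on the deposited scale. On vehicle, Nr1h3 was at 83.1, 105, 106 and 101 TPM in W/W mice, 120.0, 101, 101 and 110.1 TPM in W/F mice and 124, 103, 95.8 and 91.4 TPM in F/F mice. These values overlapped, as did all neighbours in the order of the 9 group means of Nr1h3. The F/F versus W/W difference on vehicle was 0.06 with a 95% interval of -0.15 to 0.27 (log2, adjusted p = 0.594). After median-of-ratios scaling the same comparison gave -0.80 ± 0.0988 (SE), adjusted p = 3.62e-08, with 124 ± 6.28 in W/W and 71.6 ± 10.7 in F/F rescaled TPM. Nr1h3 was then lower in all 4 F/F mice than in any W/W mouse. It was also lower in W/F vehicle mice (-0.53 ± 0.0988 (SE), adjusted p = 3.70e-05) and in F/F mice given T0901317 (-0.38 ± 0.0988 (SE), adjusted p = 0.00224) than in their W/W controls on that scale. The intermediate scaling, which fixes the total outside the 100 most abundant genes, gave -0.36 for F/F versus W/W (vehicle) (adjusted p = 0.000582).

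Nr1h2, which encodes LXRbeta, was higher in mutant livers on the deposited scale. The vehicle mice had 22.2, 23.4, 23.1 and 23.5 TPM for W/W, 38.5, 39.2, 38.1 and 40.5 TPM for W/F and 46.5, 50.9, 45.3 and 45.9 TPM for F/F. All 3 genotypes were separate, with F/F mice highest. The log2 difference was 1.00 ± 0.103 (SE), adjusted p = 5.02e-10 for F/F versus W/W and 0.74 ± 0.103 (SE), adjusted p = 2.97e-07 for W/F versus W/W. On chow, F/F mice had 30.4, 29.0, 38.1 and 38.0 TPM against 25.9, 24.0, 22.8 and 25.3 TPM in W/W (0.44 ± 0.103 (SE), adjusted p = 0.000909), and the groups again did not overlap. With T0901317, W/F mice ranged from 20.3 to 33.7 TPM and F/F mice from 36.6 to 44.9 TPM. In the order of its 9 group means, the neighbours that did not overlap were F/F vehicle above F/F T0901317, and W/F vehicle above F/F chow. After median-of-ratios scaling no Nr1h2 comparison of 2 groups passed the test with all libraries, and F/F versus W/W (vehicle) gave 0.16 ± 0.0748 (SE), adjusted p = 0.0700. Without W/W vehicle replicate 1 this difference was called, and so was that between W/F vehicle and W/F chow without W/F chow replicate 3; over all single omissions the values ran from 0.13 to 0.21 and from 0.09 to 0.21. Across libraries, log2 Nr1h2 correlated with the log2 scaling factor at r = 0.952 (36 libraries, a description, since both come from the same values and share the groups).

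Rxra encodes the main RXR of hepatocytes. On vehicle it was at 169, 216, 213 and 201 TPM in W/W mice, 194, 199, 207 and 198 TPM in W/F mice and 249.8, 228, 207 and 218 TPM in F/F mice. The 3 genotypes overlapped, and neither mutant differed from W/W at the threshold (0.01 ± 0.0941 (SE), adjusted p = 0.967 for W/F and 0.18 ± 0.0941 (SE), adjusted p = 0.0844 for F/F). On the median-of-ratios scale Rxra was lower in both, at -0.66 ± 0.0988 (SE), adjusted p = 1.60e-06 in W/F and -0.68 ± 0.0988 (SE), adjusted p = 5.51e-07 in F/F. Rxrb, the less abundant RXR, was at 17.1, 19.6, 21.1 and 20.2 TPM in W/W vehicle mice and 37.1, 31.3, 31.0 and 31.9 TPM in F/F vehicle mice. F/F mice were all higher, at 0.72 ± 0.0927 (SE), adjusted p = 3.56e-08, and after median-of-ratios scaling this became -0.11 ± 0.0749 (SE), adjusted p = 0.208.

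A ratio of 2 genes within a library does not depend on how the library was scaled, and by itself shows unequal levels, not which gene changed. The TPM ratio of Nr1h3 to Nr1h2 had a geometric mean of 4.27 (3.74 to 4.61) in W/W vehicle mice (lowest to highest mouse in parentheses), 2.76 (2.56 to 3.12) in W/F vehicle mice and 2.18 (1.99 to 2.66) in F/F vehicle mice. The 3 genotypes ran in this order, and both mutants lay wholly below W/W. On chow the values were 3.74, 3.83 and 3.04, with overlap. With T0901317, W/W and W/F both had 3.53 and F/F had 2.42, and F/F again lay wholly below W/W. The ratio of Rxra to Rxrb was 10.2 (9.92 to 11.0) in W/W vehicle mice, 7.37 (6.88 to 7.86) in W/F vehicle mice and 6.88 (6.68 to 7.27) in F/F vehicle mice. On chow it was 9.74, 9.76 and 9.82 in the 3 genotypes. The alpha form thus exceeded the beta form less in mutant than in W/W livers on vehicle, by a factor of 0.511 for the LXRs and 0.673 for the RXRs in F/F. In exact two-sided permutation tests over 70 arrangements, both gave p = 0.0286, the smallest that 4 against 4 allows, and an adjusted p of 0.0857 over the 48 ratio tests. None of the 48 tests passed 0.05 after adjustment. With 4 against 4, a test could pass only if most of the 48 reached the smallest p, so this outcome does not show equal ratios. Groups did not overlap in 16 of the 48, and ratios of other gene pairs were not worked out for comparison. In those 16, all at that exact p, the ratio of Ncor1 to Ncoa1 appeared once and that of Ncoa1 to Ncoa2 appeared for the diet comparison in W/F and F/F. T0901317 moved the ratio of Nr1h3 to Nr1h2 by a factor of 0.827 in W/W and 1.28 in W/F, and that of Rxra to Rxrb by 0.790 and 1.16, without overlap in any of these 4 comparisons. The difference between those responses was not tested.

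**Figure D2:**
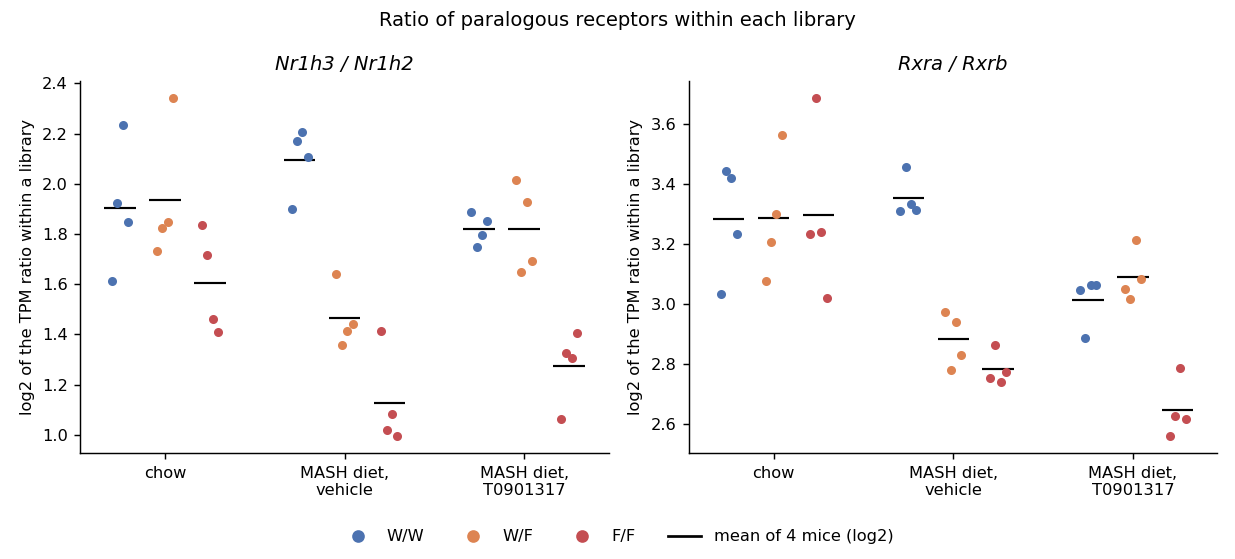
Log2 of the TPM ratio of Nr1h3 to Nr1h2 (left) and of Rxra to Rxrb (right) within each library, by treatment on the x axis and genotype in colour, with the mean of 4 mice as a black line; the y axes do not start at 0. On vehicle, all W/F and F/F mice lie below all W/W mice in both panels, which correspond to geometric means of 4.27, 2.76 and 2.18 on the left.

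Among the corepressor genes, Tbl1xr1, whose product exchanges corepressors for coactivators, had the largest F/F versus W/W difference on vehicle as deposited. It was at 6.65, 8.63, 7.81 and 7.92 TPM in W/W vehicle mice, 12.4, 14.9, 14.7 and 13.9 TPM in W/F vehicle mice and 16.3, 20.8, 16.4 and 18.5 TPM in F/F vehicle mice. F/F mice were highest without overlap (1.12 ± 0.0829 (SE), adjusted p = 6.16e-13), and on the median-of-ratios scale they were still higher than W/W (0.32 ± 0.0772 (SE), adjusted p = 0.000757). On chow, Tbl1xr1 was at 14.6, 13.1, 13.6 and 15.4 TPM in F/F and 8.73, 8.66, 9.65 and 8.02 TPM in W/W. This difference passed the test on both scales, with 0.63 ± 0.0829 (SE), adjusted p = 5.82e-07 as deposited and 0.28 ± 0.0772 (SE), adjusted p = 0.00601 after scaling. With T0901317 the deposited values gave 0.49 ± 0.0829 (SE), adjusted p = 9.61e-06, and the scaled ones gave 0.00 ± 0.0772 (SE), adjusted p = 0.998. Hdac3, the deacetylase of the NCoR complex, was at 20.01, 24.6, 22.5 and 23.5 TPM in W/W vehicle mice and 40.6, 42.7, 42.7 and 41.1 TPM in F/F vehicle mice. The groups were far apart as deposited (0.86 ± 0.0777 (SE), adjusted p = 3.44e-11) and not after median-of-ratios scaling (0.02 ± 0.0678 (SE), adjusted p = 0.8295). Ncor1, the scaffold of the complex, was at 12.1, 15.1, 15.3 and 14.6 TPM in W/W vehicle mice and 21.4, 21.7, 21.7 and 21.0 TPM in F/F vehicle mice. Its difference was 0.56 ± 0.0946 (SE), adjusted p = 3.68e-06 as deposited and -0.26 ± 0.0694 (SE), adjusted p = 0.00201 after scaling, so its direction depended on the scaling.

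As deposited, the group means of Ncoa1 and Ncoa2 were lowest in W/F mice given T0901317 (4.63 ± 0.721 and 3.63 ± 0.432 TPM). After median-of-ratios scaling Ncoa1 was lowest in F/F mice given T0901317 (4.92 ± 0.482 rescaled TPM, against 6.14 ± 1.05 in W/W vehicle mice) and Ncoa2 in F/F vehicle mice (3.75 ± 0.366, against 5.11 ± 0.387). Ncoa1 was at 6.46, 7.05, 7.84 and 7.45 TPM in W/W chow mice and 3.18, 5.75, 5.39 and 5.47 TPM in W/W vehicle mice. Replicate 1 of the vehicle group was well below the others, and the groups did not overlap. Ncoa2 was at 6.08, 7.81, 5.94 and 6.60 TPM in W/W chow mice and 3.30, 4.51, 3.83 and 4.70 TPM in W/W vehicle mice, again without overlap. In F/F mice Ncoa2 was at 7.84, 7.37, 7.41 and 7.18 TPM on chow and 4.70, 5.55, 5.96 and 5.54 TPM on vehicle, and the chow mice were all higher.

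Comparison of the genotypes asks how the mutation alters expression under each condition. On chow, W/F livers did not differ detectably from W/W in any of the 9 genes with limma, on either scale. At an adjusted p under 0.05, 0.487% of all tested genes were called as deposited and 0.601% after median-of-ratios scaling. At the looser limma threshold of an unadjusted p under 0.05, 0 of the 9 genes were called on either scale. F/F livers on chow were higher in 6 of the 9 genes (Nr1h2, Rxra, Rxrb, Ncor1, Tbl1xr1 and Hdac3) as deposited, when 43.0% of all tested genes were called higher, and in Tbl1xr1 alone after scaling, when 15.9% were. Leaving out W/W chow replicate 1 or 2 or F/F chow replicate 1 reduced the 6 to 3. After scaling, Nr1h3 was also called lower without W/W chow replicate 1, and Rxrb without W/W chow replicate 2. On vehicle, 7 of the 9 genes were higher in W/F (all but Nr1h3 and Rxra), against 61.6% of tested genes, and the same 7 were higher in F/F, against 69.3%. The median of the 9 genes was 0.62 in F/F and that of all tested genes 0.70 (log2), so these shares are near those of all genes. Without W/W vehicle replicate 1, Ncoa2 was not called in either mutant as deposited, and in W/F also not without W/F vehicle replicate 2 or 3. After scaling, Nr1h3, Rxra, Rxrb and Ncor1 were lower in W/F (25.5% of tested genes lower; Rxrb not without W/W vehicle replicate 1, W/W vehicle replicate 3, W/F vehicle replicate 1, W/F vehicle replicate 2 or W/F vehicle replicate 3), while in F/F Nr1h3, Rxra, Ncor1 and Ncoa2 were lower (28.1%) and Tbl1xr1 was higher (31.0%). In F/F, Ncoa1 was also called lower without W/W vehicle replicate 1 and Rxrb without F/F vehicle replicate 1, and in W/F Tbl1xr1 was called higher without W/F vehicle replicate 1. With T0901317, none of the 9 genes passed the limma test in W/F on either scale. At the same adjusted threshold, 9.88% of tested genes passed in either direction as deposited and 13.4% after scaling. On each scale, 2 of the 9 genes had an unadjusted limma p under 0.05, a looser threshold than that of these shares. Leaving out W/F T0901317 replicate 1 gave 1 call as deposited, and Tbl1xr1 was then also called after scaling (-0.25 to -0.16 over all single omissions). In F/F, 6 were higher as deposited (Nr1h2, Rxrb, Ncor1, Ncoa2, Tbl1xr1 and Hdac3, against 56.3% of tested genes), and 3 were lower after scaling (Nr1h3, Rxra and Hdac3, against 22.7%). Hdac3 was called in opposite directions by the 2 scales there, at 0.27 ± 0.0777 (SE), adjusted p = 0.00296 and -0.24 ± 0.0678 (SE), adjusted p = 0.00477.

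Cell type markers were tested in the same way. In F/F versus W/W (vehicle) as deposited, 69.3% of all tested genes were higher and 7.13% lower. There, 6 of 9 macrophage markers were higher, near that share, and 3 lower. All 8 stellate cell, all 4 neutrophil and all 5 bile duct markers were higher, and 5 of 8 hepatocyte markers were lower. After scaling, 31.0% of all tested genes were higher and 28.1% lower. The macrophage, neutrophil and bile duct counts stayed the same. Of the stellate markers, 6 were then higher and 1 lower, and 7 hepatocyte markers were lower. Of 6 sinusoidal endothelium markers, 2 were higher and 2 lower as deposited, and 1 was higher and 4 lower after scaling. The stellate markers summed to 97.7 to 157 TPM in W/W vehicle mice and 1110 to 1408 in F/F vehicle mice, the neutrophil markers to 2.35 to 7.27 and 141 to 412, and the bile duct markers to 54.0 to 61.4 and 2908 to 3554. In W/F versus W/W (chow), where none of the 9 genes was called, no marker of any list was called either. In F/F versus W/W (chow) as deposited, 6 of 9 macrophage markers were higher and 3 lower. All 5 bile duct, 7 of 8 stellate and 2 of 4 neutrophil markers were higher, and 2 of 8 hepatocyte markers were higher and 1 lower. Of all tested genes, 43.0% were higher and 3.65% lower. After scaling, 5 macrophage markers were higher and 3 lower, and 3 hepatocyte markers were lower and none higher. The bile duct, stellate and neutrophil counts stayed the same, when 15.9% of all tested genes were higher and 14.0% lower. Of 6 endothelium markers, 3 were higher as deposited and none was called after scaling. The part of these cells in the values of the 9 genes was not tested.

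**Figure D3:**
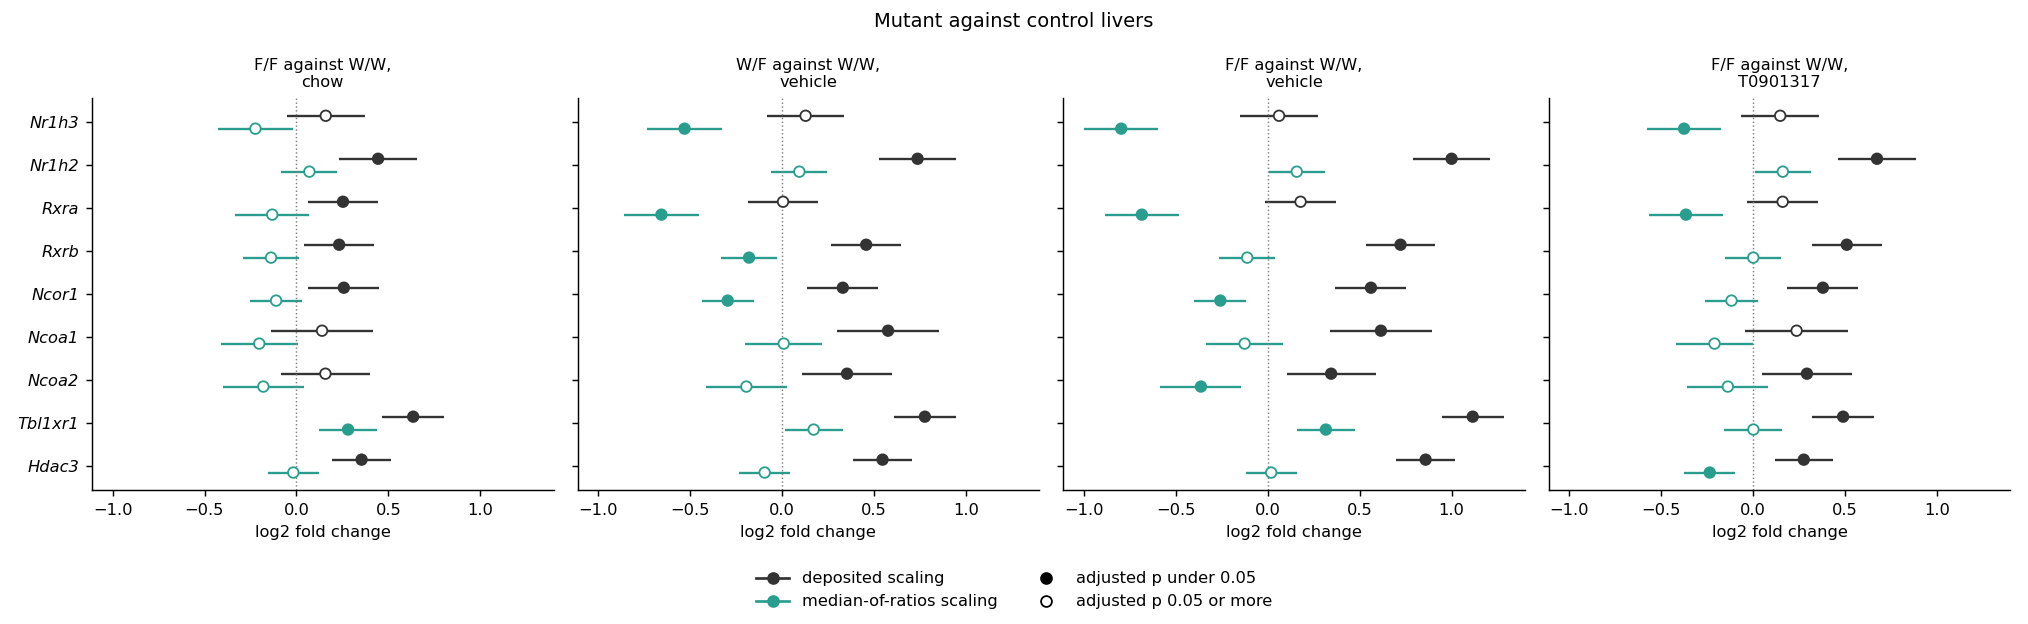
Log2 fold change of each gene (x axis) with its 95% interval for F/F chow, W/F vehicle, F/F vehicle and F/F T0901317 livers, each versus W/W, as deposited (dark) and after median-of-ratios scaling (green); filled points have an adjusted p under 0.05. Scaling moves every point of these 4 panels to the left, and for F/F versus W/W (vehicle) Tbl1xr1 is the 1 gene called higher on both scales, at 1.12 and 0.32, while Ncor1 and Ncoa2 change from called higher to called lower.

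On the MASH diet with vehicle, compared with chow, the coactivator genes and Ncor1 were lower in W/W livers on both scales. Ncoa2 fell by 0.58 on the log2 scale (SE 0.119, adjusted p = 0.00138), Ncoa1 fell by 0.49 (SE 0.137, adjusted p = 0.0164) and Ncor1 fell by 0.36 (SE 0.0946, adjusted p = 0.0111), when 10.3% of tested genes were lower. The same 3 were lower after scaling (-0.49, adjusted p = 0.00229 for Ncoa2, -0.39, adjusted p = 0.00997 for Ncoa1 and -0.24, adjusted p = 0.0184 for Ncor1, with 8.44% of tested genes lower), and Hdac3 was then higher (0.23, adjusted p = 0.0217, with 6.98% higher), though not without W/W chow replicate 2, W/W chow replicate 4, W/W vehicle replicate 1 or W/W vehicle replicate 2. Without W/W vehicle replicate 1, Ncoa2 alone passed as deposited, and neither Ncoa1 nor Ncor1 kept its call after scaling (Ncor1 also not without W/W chow replicate 4). A fit of these 2 groups alone called none of the 9 genes (adjusted p = 0.0516 for Ncoa2). In W/F livers, Nr1h2, Rxrb, Tbl1xr1 and Hdac3 were higher as deposited (52.4% of tested genes) and Ncoa2 was lower (8.53%), while after scaling Nr1h3, Rxra, Rxrb, Ncor1, Ncoa1 and Ncoa2 were lower (27.0%). Rxrb was thus higher on one scale and lower on the other, at 0.26, adjusted p = 0.0149 and -0.22, adjusted p = 0.0135, the latter not without W/F chow replicate 1 or W/F vehicle replicate 1. F/F livers gave the same 4 higher (46.5%) and Ncoa2 lower (9.27%) as deposited. After scaling, Hdac3 was higher in them (25.7%) and Nr1h3, Rxra, Ncor1, Ncoa1 and Ncoa2 were lower (21.3%; Ncoa1 not without F/F chow replicate 1 or F/F vehicle replicate 1). Ncoa2 was lower with the diet in all 3 genotypes on both scales. In W/F the deposited value was the weakest of these, at -0.27 ± 0.119 (SE), adjusted p = 0.0468, and it lost its call without W/F chow replicate 1, 2 or 3 or W/F vehicle replicate 1 or 4, or when the low-expression filter was dropped (adjusted p = 0.0723). In F/F, Hdac3 was higher on both scales, at 0.61 ± 0.0777 (SE), adjusted p = 1.48e-07 and 0.26 ± 0.0678 (SE), adjusted p = 0.00195, with 27.6, 23.5, 28.2 and 29.6 TPM on chow and 40.6, 42.7, 42.7 and 41.1 TPM on vehicle. In the same comparison 6 of 9 macrophage markers were higher and 2 lower on both scales. Of 8 hepatocyte markers, 6 were lower as deposited and 7 after scaling. In W/F, 7 macrophage markers were higher and 1 lower, and 8 of 8 stellate markers were higher, on both scales. Of 8 hepatocyte markers in W/F, 4 were lower as deposited and 7 after scaling. After scaling, 27.9% of all tested genes were higher in W/F. All 5 bile duct and all 4 neutrophil markers were higher in W/F and in F/F on both scales. Of 6 endothelium markers, 1 was higher and 3 lower as deposited in each of these genotypes. After scaling, 1 was higher and 4 lower in each. In F/F, 5 of 8 stellate markers were higher on both scales, with 1 lower as deposited and 2 lower after scaling. In W/W the diet called no macrophage, bile duct, neutrophil or endothelium marker on either scale, and 1 stellate marker was higher after scaling. Of 8 hepatocyte markers in W/W, 3 were lower and 1 higher as deposited, and 1 was lower and 1 higher after scaling. Their part in the result was not tested.

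**Figure D4:**
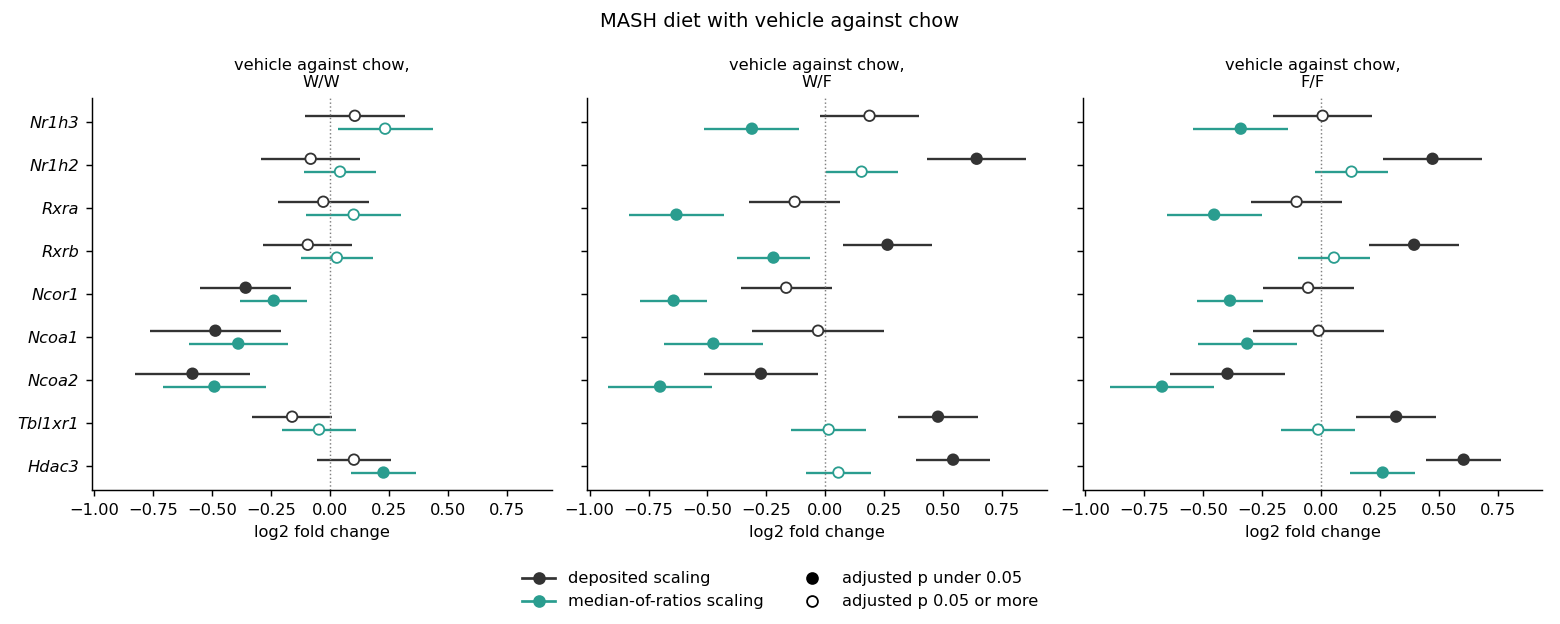
Log2 fold change of each gene (x axis, with its 95% interval) for the MASH diet with vehicle against chow in W/W, W/F and F/F livers, on the deposited (dark) and median-of-ratios (green) scales; filled points have an adjusted p under 0.05. Ncoa2 is lower in all 3 panels on both scales, from -0.58 in W/W to -0.27 in W/F as deposited, whereas Nr1h2 is called higher in W/F and F/F as deposited and in no panel after scaling.

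T0901317, compared with vehicle on the MASH diet, was accompanied by higher Tbl1xr1 in W/W livers, at 9.65, 10.1, 10.4 and 9.87 TPM with the agonist and 6.65, 8.63, 7.81 and 7.92 TPM on vehicle. The groups did not overlap, and the change was 0.34 ± 0.0829 (SE), adjusted p = 0.00605 as deposited and 0.28 ± 0.0772 (SE), adjusted p = 0.0131 after scaling, with 7.87% and 8.0% of tested genes called higher. It was the 1 of the 9 genes called there on these scales, and a fit of these 2 groups alone left it just short of the threshold (adjusted p = 0.0502). Nr1h3, a known target of LXR in several tissues, was not called in W/W (-0.18 ± 0.103 (SE), adjusted p = 0.309, and -0.25 ± 0.0988 (SE), adjusted p = 0.0926 after scaling). Scaling outside the 100 most abundant genes called it lower there (-0.28, adjusted p = 0.0299), and Rxra as well (-0.30, adjusted p = 0.0145). On that scale 6.38% of tested genes were lower. In W/F livers, 6 genes were lower as deposited (Nr1h2, Ncor1, Ncoa1, Ncoa2, Tbl1xr1 and Hdac3), as were 59.3% of tested genes. After scaling, none was lower and 5 were higher (Nr1h3, Rxra, Rxrb, Ncor1 and Hdac3), as were 23.6% of tested genes. Ncor1 and Hdac3 were called in opposite directions by the 2 scales. The scaled call of Ncor1 was lost without W/F vehicle replicate 1 or W/F vehicle replicate 4, and that of Hdac3 without W/F vehicle replicate 1, W/F vehicle replicate 2, W/F vehicle replicate 3 or W/F T0901317 replicate 1. Rxra, at 194, 199, 207 and 198 TPM on vehicle and 165, 200.1, 218 and 222 TPM with T0901317, went from 0.00 ± 0.0941 (SE), adjusted p = 0.985 to 0.61 ± 0.0988 (SE), adjusted p = 6.75e-06. In F/F livers Ncoa1, Tbl1xr1 and Hdac3 were lower as deposited (31.2% of tested genes). Leaving out F/F vehicle replicate 2 left 1 of the 3. After scaling, 1 of the 9 had an unadjusted limma p under 0.05. None passed the stricter adjusted threshold, which 16.3% of tested genes passed in either direction. Rxrb was called higher without F/F vehicle replicate 1. Hdac3 was at 32.8, 36.1, 28.9 and 30.5 TPM in the F/F mice given T0901317, below all F/F vehicle mice, and its change was -0.38 ± 0.0777 (SE), adjusted p = 0.000667 as deposited and -0.11 ± 0.0678 (SE), adjusted p = 0.281 after scaling. Of 9 macrophage markers, 6 were lower and 2 higher with the agonist in W/F as deposited, when 59.3% of all tested genes were lower and 6.59% higher. In F/F, 5 were lower and 2 higher, when 31.2% of all tested genes were lower and 3.95% higher, and in W/W none was called. After scaling the counts were 6 lower and 2 higher in W/F, and 1 lower and 2 higher in F/F. Of all tested genes, 27.1% were then lower and 23.6% higher in W/F, and 7.98% lower and 8.32% higher in F/F. The macrophage markers summed to 155 to 1043 TPM in W/F and 1407 to 2218 TPM in F/F mice with T0901317. Other lists moved as well. In W/F, 8 stellate, 5 bile duct and 4 neutrophil markers were lower as deposited, and 7, 5 and 4 after scaling. In F/F, 3, 5 and 4 were lower as deposited, and 3, 3 and 4 after scaling, when 1 stellate marker was higher. Of 8 hepatocyte markers, 3 were higher and 2 lower in W/F as deposited, and 5 higher after scaling. In F/F, 6 were higher as deposited and 7 after scaling. Of 6 endothelium markers, 3 were higher in W/F as deposited and 5 after scaling. In F/F none of them was called as deposited and 1 was higher after scaling. In W/W, 1 was higher on both scales. The part of these cells in the result was not tested.

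**Figure D5:**
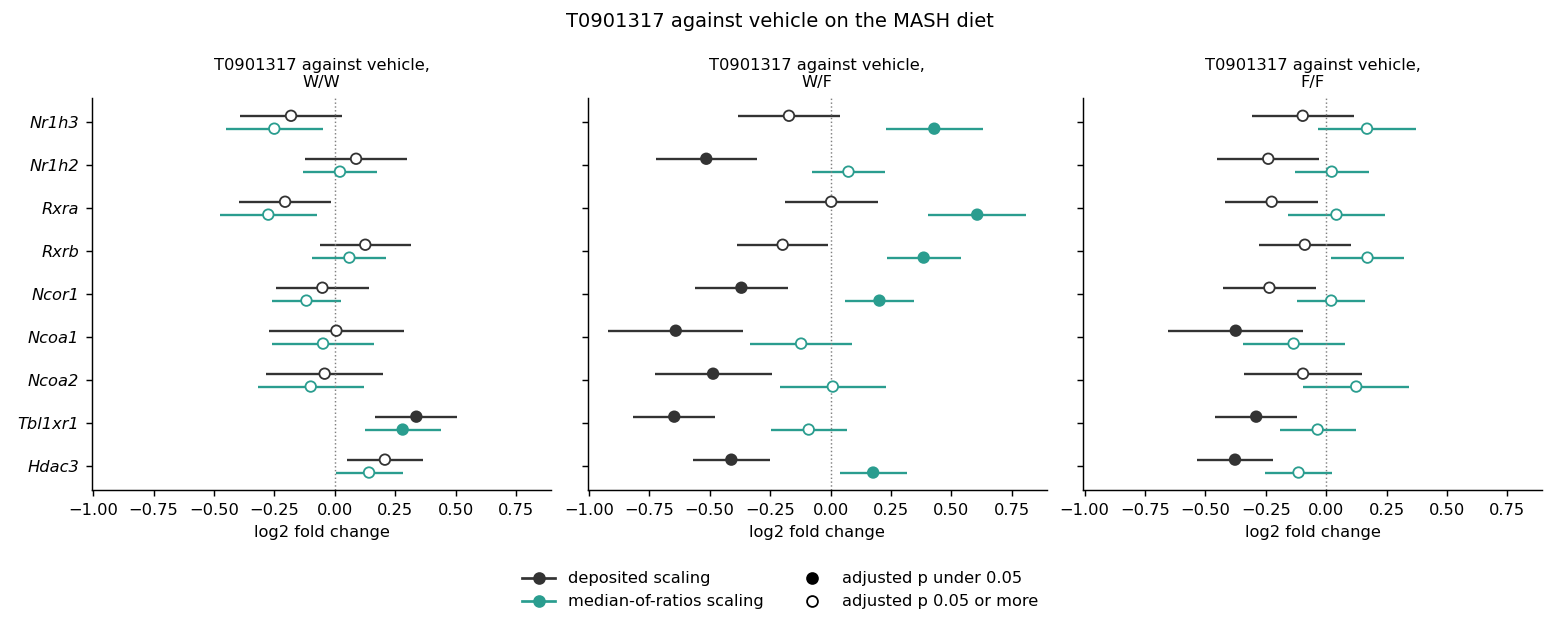
Log2 fold change of each gene (x axis, with its 95% interval) for T0901317 against vehicle on the MASH diet in W/W, W/F and F/F livers, on the deposited (dark) and median-of-ratios (green) scales; filled points have an adjusted p under 0.05. In W/W the scales nearly coincide and Tbl1xr1 is the 1 called gene, at 0.34 and 0.28, whereas in W/F the scaling moves every gene to the right.

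Whether the responses differed between genotypes was tested directly. The T0901317 response of Tbl1xr1 was lower in W/F than in W/W, with a difference of -0.98 ± 0.117 (SE), adjusted p = 6.36e-08 as deposited and -0.37 ± 0.109 (SE), adjusted p = 0.00649 after scaling. For F/F it was -0.63 ± 0.117 (SE), adjusted p = 0.000265 and -0.32 ± 0.109 (SE), adjusted p = 0.0433, and the scaled value lost its call when any of 11 of the 16 libraries was left out, with values from -0.35 to -0.26. As deposited, the response to T0901317 was lower in W/F for 7 of the 9 genes (all but Nr1h3 and Rxra; 53.2% of tested genes) and in F/F for Tbl1xr1 and Hdac3 (27.2%). Leaving out W/W vehicle replicate 1, W/W T0901317 replicate 3 or W/F vehicle replicate 2 reduced the 7 to 4. After scaling, Tbl1xr1 alone was lower in W/F (24.0%), and Nr1h3, Rxra, Rxrb and Ncor1 were higher (19.9%). In F/F, Nr1h3 was higher (7.39% of tested genes) and Tbl1xr1 lower (10.0%) on that scale, and the Nr1h3 call (0.42, adjusted p = 0.0353) was lost when any of 10 of the 16 was left out. The diet response was higher for Nr1h2, Rxrb, Ncoa1, Tbl1xr1 and Hdac3 in both W/F (49.5% of tested genes) and F/F (41.5%) as deposited. Without W/W vehicle replicate 1, 3 of these 5 remained called in W/F. After scaling, Nr1h3, Rxra and Ncor1 were lower in W/F (19.1%) and Nr1h3 and Rxra were lower in F/F (12.3%). The W/F and F/F differences share the W/W mice.

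Of 29 further cofactor and RXR genes, all tested, 26 were higher and 1 lower in F/F than in W/W vehicle livers as deposited, with a median of 0.88 (all tested genes 0.70). Of all tested genes, 69.3% were higher and 7.13% lower. After scaling, 9 of the 29 were higher and 6 lower, with a median of 0.14 (all tested genes 0.03). Of all tested genes, 31.0% were then higher and 28.1% lower, so the share of the 29 called higher was near that of all genes. The 2 highest as deposited were the arginine methyltransferase Prmt1 (1.43, SE 0.116) and the deacetylase Hdac1 (1.34, SE 0.0960), and the 1 lower gene was Nr0b2, which encodes the corepressor SHP (-1.26, SE 0.371); all 3 were called in the same direction after scaling. With the diet in W/W, 12 of the 29 were lower and none higher as deposited, against 10.3% of all tested genes lower. After scaling 9 were lower and 2 higher, against 8.44% and 6.98%, and the lowest as deposited were Ppargc1a (-0.66, and -0.60 after scaling) and Rcor1 (-0.65, and -0.54 after scaling). With T0901317 in W/W, 1 of the 29 was lower as deposited, the acetyltransferase gene Crebbp (-0.29, SE 0.0828), and 5 were lower after scaling. Of all tested genes, 2.91% were lower as deposited and 5.52% after scaling. Of 11 enzymes that make or remove sterol ligands, 10 were tested (not Sult2b1). In F/F versus W/W vehicle livers, 3 were higher and 6 lower as deposited, when 69.3% of all tested genes were higher and 7.13% lower. After scaling, 3 were higher and 7 lower, when 31.0% of all tested genes were higher and 28.1% lower. Ch25h, which makes an oxysterol, was higher (2.45, SE 0.215, and 2.03 after scaling), and Cyp7b1, which removes oxysterols by hydroxylation, was lower (-2.67, SE 0.535, and -3.52 after scaling). Cyp39a1, another oxysterol hydroxylase, was higher (1.76, SE 0.299, and 0.94 after scaling), and Cyp27a1, which oxidises the sterol side chain, was lower (-1.30, SE 0.117, and -2.16 after scaling). Of 18 LXR target genes, a list that includes Nr1h3, 11 were higher with T0901317 in W/W, 10 in W/F (with 4 lower) and 13 in F/F as deposited, when 7.87%, 6.59% and 3.95% of all tested genes were higher. In W/F, 59.3% of all tested genes were lower as deposited, a larger share than that of the 18 targets. The highest in W/W were Pnpla3 (4.53, and 4.57 after scaling) and Pltp (3.32, and 3.26 after scaling), in W/F Thrsp (4.95, and 5.54 after scaling) and Srebf1 (2.67, and 3.27 after scaling) and in F/F Scd1 (5.36, and 5.59 after scaling) and Thrsp (3.68, and 3.84 after scaling), and the lowest in W/F were Lpl (-3.01, and -2.42 after scaling) and Pltp (-1.74, and -1.15 after scaling). After scaling, 10, 13 and 15 of the 18 were higher in the 3 genotypes, when 8.0%, 23.6% and 8.32% of all tested genes were, and Nr1h3 was called in W/F alone. In W/F, 3 of the 18 were lower after scaling, when 27.1% of all tested genes were.

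The genes whose log2 values most resembled each member over the 36 libraries, by Pearson's r, are given as a description, since the libraries share groups and scaling. Those nearest Nr1h3 were Mlx (r = 0.802), Arhgef19 (r = 0.738) and Zfhx2 (r = 0.734) as deposited and Mlx (r = 0.938), Dnaja1 (r = 0.925) and Naprt (r = 0.920) after scaling. Mlx, which encodes the partner of the lipogenic factor ChREBP, led on both scales. For Nr1h2 they were Prmt1 (r = 0.971), Mmp14 (r = 0.968) and Spats2l (r = 0.967) as deposited and Nosip (r = 0.783), Gm44949 (r = 0.729) and Ctu1 (r = 0.728) after scaling, with no gene in common. Rxra was closest to Nags (r = 0.799), Mrps31 (r = 0.783) and Desi1 (r = 0.778) as deposited, and Rxrb to Cyhr1 (r = 0.934), Alg1 (r = 0.922) and Mgrn1 (r = 0.921). Ncor1 and Ncoa2 had r = 0.863 as deposited and 0.909 after scaling. Nr1h3 and Rxra had r = 0.631 and 0.879. Nr1h2 and Hdac3 had r = 0.905 as deposited and 0.310 after scaling. In windows from 250 bases before to 50 bases after the annotated start (RefSeq, GRCm38.p6), 7 of the 9 genes matched with 11 windows. Windows of the 9 genes on chromosome 18, where Hdac3 lies, were left out beforehand, so Hdac3 was not searched. Among these 11 windows, the half-site AGGTCA, searched on both strands, was found in 1 window of Rxra alone. Of 32851 such windows of all genes, 16.3% held at least 1.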

How the data were processed

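RNA-seq was analysed from 36 mouse livers, 4 per group, as TPM per gene deposited by the authors in 1 table. Per the submitters' processing notes, reads were trimmed with Trimmomatic 0.36, aligned with STAR 2.5.2b to GRCm38 and counted with featureCounts of Subread 1.5.2; strandedness is not given in the sources used here. No label says that each library is a separate mouse, so p-values measure the spread between these libraries, which may be technical in part.

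Genes at 1 TPM or more in at least 4 libraries (16638 of 49315) were tested as log2(TPM + 1) with limma 3.58.1 in R 4.3.3, in 1 model of 9 group means over 36 libraries with an intensity trend. Fold changes are on that log2(TPM + 1) scale, which understates changes of low genes. Benjamini-Hochberg adjustment was over all tested genes, at 0.05. Ratios were tested by exact two-sided permutation. Alternatives were median-of-ratios scaling, scaling outside the 100 most abundant genes, a pseudocount of 0.1, a minimum of 5 TPM or none, a replicate block, fits of the compared groups alone, and leaving out each library; leaving out libraries after median-of-ratios scaling was added after seeing the data. Members and lists were chosen with earlier results of these data known. Named genes outside the 9 are the 2 highest and 2 lowest called changes of their list, or the 3 genes most correlated with a member. Sequences and positions are from GENCODE M21 and RefSeq.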

Additional observations from a re-analysis of the deposited data

Results flagged for a closer look

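In 4 of 81 groups of 4 mice, 1 mouse stood far from the other 3, where chance gives about 1 in 20 groups. These were Rxrb in F/F vehicle replicate 1 (37.1 TPM, the highest), Ncor1 in W/F T0901317 replicate 1 (12.3 TPM, the lowest), Ncoa1 in W/W vehicle replicate 1 (3.18 TPM, the lowest) and Hdac3 in W/F chow replicate 4 (20.5 TPM, the lowest). The response to T0901317 differed between W/F and W/W (log2 difference of responses, limma, deposited scale) for Nr1h2 (-0.60), Rxrb (-0.32), Ncor1 (-0.32), Ncoa1 (-0.65), Ncoa2 (-0.44), Tbl1xr1 (-0.98) and Hdac3 (-0.62). Between F/F and W/W it differed for Tbl1xr1 (-0.63) and Hdac3 (-0.58). In their diet response, W/F livers differed from W/W for Nr1h2 (0.72), Rxrb (0.36), Ncoa1 (0.46), Tbl1xr1 (0.64) and Hdac3 (0.44), and F/F differed from W/W for Nr1h2 (0.56), Rxrb (0.49), Ncoa1 (0.48), Tbl1xr1 (0.48) and Hdac3 (0.50). After median-of-ratios scaling, of these 19 differences those of Tbl1xr1 for T0901317 were called in the same direction in both mutants, and those of Rxrb and Ncor1 for T0901317 in W/F were called in the opposite direction. No cause was tested.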

How the results depend on the processing

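Scaling moved the results most. Of 144 pairs of a gene and a comparison, 68 were called as deposited and 47 after median-of-ratios scaling, 11 of them on both scales in 1 direction and 10 in opposite directions. Of the 94 pairs called on at least 1 of these scales, 42 changed sign under median-of-ratios scaling, with the log2 values below; sign changes of pairs called on neither scale are not listed. For T0901317 in W/F, the values were Nr1h3 0.43, Nr1h2 0.074, Rxrb 0.39, Ncor1 0.20, Ncoa2 0.0096 and Hdac3 0.18. For the diet in W/F, the values were Nr1h3 -0.31 and Rxrb -0.22. For the diet in F/F, the values were Nr1h3 -0.34 and Tbl1xr1 -0.011. For F/F versus W/W (chow), the values were Rxra -0.13, Rxrb -0.14, Ncor1 -0.11 and Hdac3 -0.017. For W/F versus W/W (vehicle), the values were Nr1h3 -0.53, Rxra -0.66, Rxrb -0.18, Ncor1 -0.30, Ncoa2 -0.19 and Hdac3 -0.095. For F/F versus W/W (vehicle), the values were Nr1h3 -0.80, Rxra -0.68, Rxrb -0.11, Ncor1 -0.26, Ncoa1 -0.13 and Ncoa2 -0.36. For F/F versus W/W (T0901317), the values were Nr1h3 -0.38, Rxra -0.37, Rxrb -0.00011, Ncor1 -0.12, Ncoa2 -0.14 and Hdac3 -0.24. For the T0901317 response of W/F versus W/W, the values were Nr1h2 0.053, Rxrb 0.33, Ncor1 0.32, Ncoa2 0.11 and Hdac3 0.035. For the diet response of W/F versus W/W, the values were Nr1h3 -0.55, Rxrb -0.25, Ncor1 -0.41, Ncoa1 -0.086 and Hdac3 -0.17. The number of the 9 genes called there became 0 for T0901317 in F/F, 1 for F/F versus W/W (chow), 4 for W/F versus W/W (vehicle), 3 for F/F versus W/W (T0901317), 3 for the diet response of W/F versus W/W and 2 for the diet response of F/F versus W/W. Scaling outside the 100 most abundant genes changed the sign of 13 of the 94. For T0901317 in W/F, the values were Nr1h3 0.058 and Rxrb 0.025. For the diet in W/F, the values were Nr1h3 -0.023. For the diet in F/F, the values were Nr1h3 -0.23. For W/F versus W/W (vehicle), the values were Nr1h3 -0.15 and Rxra -0.28. For F/F versus W/W (vehicle), the values were Nr1h3 -0.36, Rxra -0.24 and Ncoa2 -0.0026. For F/F versus W/W (T0901317), the values were Nr1h3 -0.021 and Rxra -0.0089. For the diet response of W/F versus W/W, the values were Nr1h3 -0.18 and Ncor1 -0.062. The number called with it was 3 for T0901317 in W/W, with 1 higher (6.29% of tested genes) and 2 lower (6.38%). For T0901317 in F/F it was 1, lower (14.3%). For F/F versus W/W (chow) it was 3, all higher (31.3%), and for W/F versus W/W (T0901317) 1, higher (6.50%). For the T0901317 response of W/F versus W/W it was 4, with 2 higher (10.5%) and 2 lower (37.9%). The diet response of W/F versus W/W had 3, with 2 higher (35.4%) and 1 lower (9.11%). That of F/F versus W/W had 2, both lower (8.05%). Fits of the compared groups alone called 0 for T0901317 in W/W, 5 for T0901317 in F/F, 0 for the diet in W/W and 4 for the T0901317 response of W/F versus W/W. Shares of all tested genes are not given for these fits, the replicate block or the single omissions. With a replicate block the number called was 5 for T0901317 in F/F, and 94 of 94 single gene results kept direction and side of the threshold; the numbers did not pair the mice (same-numbered mice had correlations of deviations from -0.174 to 0.297, 18 of 144 over 0.1). Leaving out 1 library at a time, values that crossed 0 ranged as follows: Rxra -0.071 to 0.045 for W/F versus W/W (vehicle), Nr1h3 -0.027 to 0.12 for F/F versus W/W (vehicle), Nr1h3 -0.038 to 0.091 for the T0901317 response of W/F versus W/W, Ncoa1 -0.12 to 0.052 for the diet in W/F, Rxra -0.048 to 0.095 for T0901317 in W/F, Nr1h3 -0.081 to 0.064 for the diet in F/F and Ncoa1 -0.076 to 0.055 for the diet in F/F. The number called ranged over 1 to 3 for the diet in W/W, 3 to 6 for F/F versus W/W (chow), 3 to 7 for the diet response of W/F versus W/W, 4 to 7 for the T0901317 response of W/F versus W/W, 0 to 1 for W/F versus W/W (T0901317) and 1 to 4 for T0901317 in F/F. A minimum of 5 TPM left all 94 single gene results and 16 counts on their side of the threshold. A pseudocount of 0.1 lost 1 call and dropping the filter lost 8, and a pseudocount of 1 on both genes changed none of the 48 ratio results. The cause of these changes was not tested. Low genes such as Ncoa1 and Ncoa2 have the fewest reads, and the expression table does not tell which scale reflects RNA per cell.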
